A study of Mus musculus with 9 samples.

Results

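The gastrocnemius, the large calf muscle, was compared between 3 mice irradiated on 1 hind limb and 3 control mice, with both limbs of each irradiated mouse pooled. The read counts of the opposite limb (CL) and of the irradiated limb (RL) of mice 304, 305 and 306 were summed to 1 profile per mouse. These 3 profiles were set against the single libraries of control mice 307, 308 and 311 (CTL), so all 9 libraries of the series and all 6 animals entered. A gene was called alike in both limbs when its log2 fold changes in CL and RL had the same sign and the smaller was at least 0.5 of the larger.

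All mice were C57Bl6J and about 8 weeks old when muscle was taken. Irradiated mice received 3 sessions of 8.2 Gy to 1 hind limb at 4 weeks of age, and both calf muscles were collected 3 weeks afterwards. Control mice received 0 Gy, and the labels do not say whether they were handled like the irradiated ones. CL was therefore not irradiated but comes from an irradiated animal. Irradiated and control mice are different animals throughout, and the labels give neither cage nor hour of dissection. Any difference of that kind between the groups cannot be told apart from irradiation.

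A trait of the whole animal, such as a circulating hormone, feeding state or time of day, reaches both legs, whereas local radiation damages DNA where the beam passes. Muscle carries its own circadian clock, which is set by feeding, activity and hormones as well as by the brain. The comparison asks which differences from controls are shared by both legs.

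The mouse profiles held 79.1 to 86.6 M counts and the control libraries 30.8 to 41.8 M. Single libraries held 30.8 to 44.6 M counts, of which mitochondrially encoded genes took 31.1% to 51.8%. Skeletal muscle markers were high throughout, with 23896 to 38689 CPM (counts scaled to the library total) of Myh4, the myosin of fast glycolytic fibres. CL 1, the opposite limb of mouse 304, stood apart in its immune genes. It held 2.12 CPM of the B cell gene Cd79a and 1.05 CPM of the T cell gene Cd3e, while no other library exceeded 0.0768 CPM of either. The 16 lymphocyte genes listed summed to 101 CPM in CL 1, against 23.0 to 33.1 CPM in CTL, 33.2 and 34.0 CPM in the other CL libraries and 26.8 to 50.3 CPM in RL. Cd3e was at 0 in the 3 control libraries, and only 3 of the 16 genes passed the filter on low counts. Limb values, list medians and the comparison among mice were therefore also computed without CL 1.

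At 3 weeks after irradiation, 3 of 15363 genes differed between irradiated and control mice at an adjusted p under 0.05 (edgeR's quasi-likelihood test, Benjamini-Hochberg), which is 0.0195% of the genes tested. All 3 rose, namely Cdkn1a, Ccr2 and Gm10800, and all 3 had the larger difference in the irradiated limb. No gene that was alike in both limbs passed this edgeR test. At an unadjusted p under 0.05 stood 1608 genes, or 10.5% of those tested, 1043 of them higher and 565 lower in irradiated mice. Of these 1608 genes 1225 were alike in both limbs (7.97% of all tested), 291 were larger in RL and 60 were larger in CL. Both limbs were set against the same 3 controls and share their mouse, and 42.4% of all genes with limb values met the definition of alike, so that count was not read as evidence.

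DESeq2, on the same 6 profiles, called 264 genes (1.72%), of which 209 were alike in both limbs, while limma-voom on the 9 libraries with the mouse as a random block called 0, with 1327 genes at an unadjusted p under 0.05. The members described below are thus values that did not pass the main test unless stated. Leaving out mouse 305 raised the edgeR count from 3 to 359, of which 315 were alike in both limbs. Leaving out mouse 306, 307 or 308 gave 0 genes.

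Genes of the circadian clock were among those that differed from controls to nearly the same degree in both limbs. In the clock, the activators ARNTL (BMAL1) and CLOCK or NPAS2 switch on the Per and Cry genes through E-boxes, and the PER and CRY proteins then repress the activators. DBP, TEF and HLF act on D-boxes, and ROR and REV-ERB proteins compete for ROR elements, among them those of Arntl itself. The stretches below show letter matches to these elements at 3 of the clock genes whose levels are given next, with the matches in capitals. ROR elements were searched as TNGGTCA, a loose form with any base at N. The Arntl matches hold T and C at N, so their label below names matches to this loose form only. Whether the Arntl matches are the elements that these proteins bind was not tested.
Arntl, ROR elements: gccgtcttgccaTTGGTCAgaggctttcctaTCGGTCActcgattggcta
Per3, D-boxes: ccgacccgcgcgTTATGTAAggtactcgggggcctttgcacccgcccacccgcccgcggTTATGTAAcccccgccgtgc
Ciart, E-boxes: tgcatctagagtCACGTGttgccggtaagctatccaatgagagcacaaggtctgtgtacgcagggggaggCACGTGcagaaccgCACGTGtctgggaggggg

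The sequences are RefSeq promoter sequences on GRCm38.p6, written 5′ to 3′ on the strand of the gene. The Arntl stretch lies at chr7:113207253-113207302 on the plus strand, with its matches to TNGGTCA starting 200 and 181 bases before a listed transcription start. The Per3 stretch lies at chr4:151044804-151044882 on the minus strand, with D-boxes 205 and 158 bases before the start. The Ciart stretch lies at chr3:95882255-95882356 on the minus strand and holds 3 E-boxes between 116 and 44 bases before the start. Both strands of the 250 bases before each start were searched for 4 sets of letters. The E-box CACGTG occurred before a start of 6.86% of all genes and of 7 of the 23 clock genes matched out of 28 listed. The D-box TTATGNAA occurred in 3.63% of all genes and in 2 of the 23 clock genes. TNGGTCA, a loose form of the ROR element, occurred in 10.5% and in 7 of the 23. GGGCGG, a GC box that is not a clock element, occurred in 35.4% of all genes and in 19 of the 23 clock genes. These are matches of letters and not measured binding.

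Arntl stood at 8.11, 8.14 and 5.35 CPM in the control mice. It stood at 11.3, 12.7 and 13.2 CPM in CL and at 13.4, 10.9 and 14.0 CPM in RL of mice 304, 305 and 306. All 6 libraries of irradiated mice lay above all controls, by a log2 fold change of 0.80 ± 0.16 (SE, 3 mice against 3). This did not pass the edgeR test (adjusted p = 0.149) and passed DESeq2 (adjusted p = 0.00138). Over 15 alternatives the adjusted p of Arntl ran from 0.000314 to 0.423 and was under 0.05 in 3. Npas2, whose protein can take the place of CLOCK, was low at 0.297 to 0.423 CPM in CTL and 0.695 to 1.36 CPM in the 6 other libraries, again without overlap. Its log2 fold change was 1.38 ± 0.30 (edgeR adjusted p = 0.154). Clock itself overlapped with controls, at 42.2 to 51.6 CPM in CTL and 49.8 to 62.4 CPM in irradiated mice.

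Of the 10 repressor genes, 4 lay below all controls in all 6 libraries. Per3 stood at 39.2, 37.6 and 38.7 CPM in CTL, at 19.5, 28.3 and 21.8 CPM in CL and at 19.2, 27.2 and 20.4 CPM in RL. The controls lay close together, and the limbs of each mouse lay closer to each other than to any control. The log2 fold change of Per3 was -0.76 ± 0.13, with -0.73 in CL and -0.79 in RL (edgeR adjusted p = 0.125, DESeq2 adjusted p = 0.000129). DESeq2 gave the smallest adjusted p of 15 alternatives for Per3, which ran up to 0.423 and were under 0.05 in 4. Cry2, a core repressor, stood at 18.7, 18.1 and 20.01 CPM in CTL and at 11.0 to 14.5 CPM in the 6 libraries of irradiated mice. Its log2 fold change was -0.61 ± 0.10 (edgeR adjusted p = 0.111, DESeq2 adjusted p = 0.000609). For Cry2 too DESeq2 gave the smallest of the 15, which ran up to 0.394 and were under 0.05 in 3. Bhlhe41 and Ciart, which also encode repressors of the clock activators, were below all controls in all 6 libraries, with log2 fold changes of -0.40 ± 0.11 and -0.39 ± 0.13. Per2 overlapped with CTL, which ran from 6.80 to 13.3 CPM. Per1, Cry1, Nr1d1, Nr1d2 and Bhlhe40 overlapped as well, with log2 fold changes of 0.03, -0.20, 0.13, -0.20 and -0.11.

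Among the clock outputs, the D-box activators Dbp, Tef and Hlf were below all controls in every library of irradiated mice. Dbp stood at 29.0, 33.5 and 33.7 CPM in CTL, at 16.9, 22.8 and 21.4 CPM in CL and at 16.5, 23.7 and 15.3 CPM in RL. Its log2 fold change was -0.72 ± 0.13 (edgeR adjusted p = 0.129, DESeq2 adjusted p = 0.000461). Over 15 alternatives the adjusted p of Dbp ran from that DESeq2 value to 0.447 and was under 0.05 in 4. Tef stood at 132 to 148 CPM in CTL and 97.6 to 118 CPM in irradiated mice, and Hlf at 8.68 to 11.7 CPM and 6.01 to 7.98 CPM. Neither overlapped with controls, and the log2 fold changes were -0.40 ± 0.10 and -0.52 ± 0.13. Nfil3, which encodes a repressor acting on D-boxes, and Wee1, a cell cycle kinase gene, overlapped with controls at log2 fold changes of 0.45 ± 0.22 and 0.32 ± 0.21.

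**Figure D1:**
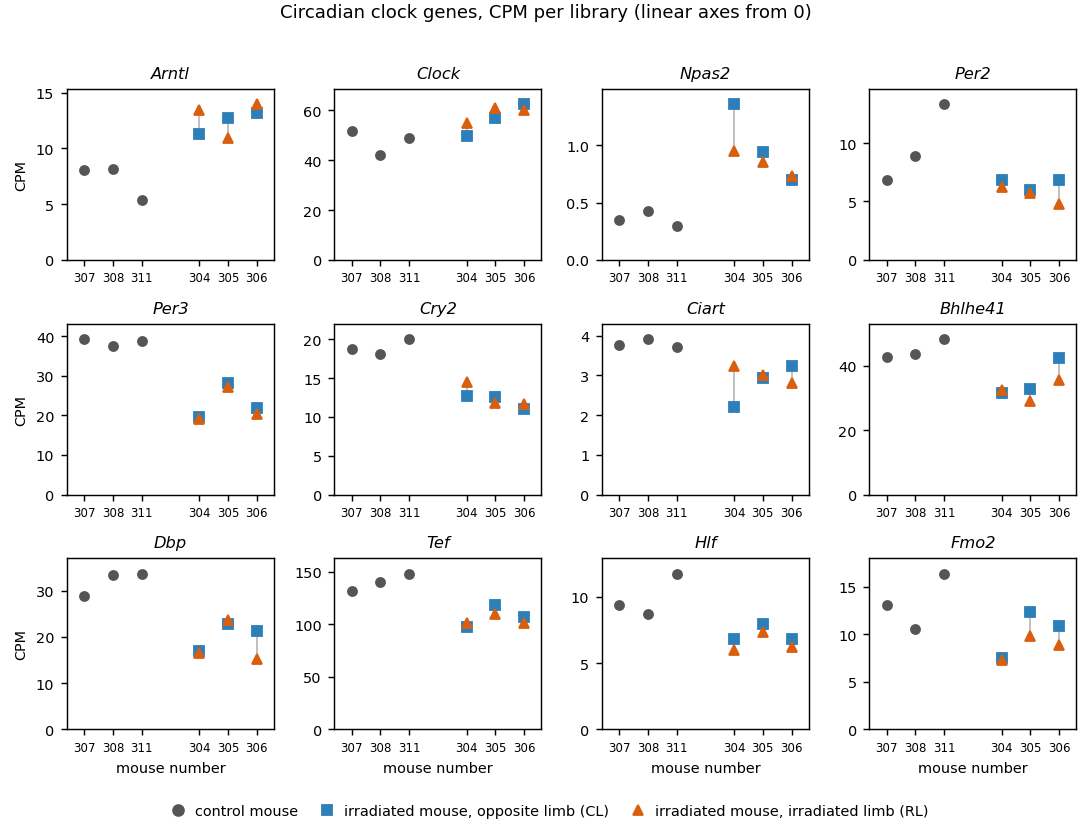
CPM (linear axes from 0) of the 12 clock genes with an unadjusted p under 0.05, for each control mouse (circles) and for CL (squares) and RL (triangles) of each irradiated mouse, joined by a line. Arntl and Npas2 lie above and Per3, Cry2, Ciart, Bhlhe41, Dbp, Tef and Hlf below the controls in all 6 libraries, while Clock, Per2 and Fmo2 overlap.

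Counted by list, 3 of 6 activator genes were higher at an unadjusted p under 0.05, against 6.79% of all genes. Lower at that level were 5 of 10 repressor genes and 4 of 12 output genes, against 3.68% of all genes. All 6 libraries lay above all controls for 2 activator genes (2.02% of all genes), and below them for 4 repressor and 3 output genes (2.99% of all genes). The lists held median log2 fold changes of 0.11, -0.30 and -0.30, where the median of all genes was 0.00. None of the 28 clock genes differed between RL and CL of the same mouse at an adjusted p under 0.05, a test that 0.285% of genes passed. For the 12 genes plotted, RL minus CL ran from -0.23 (Per2, 95% interval -0.50 to 0.04) to 0.14 (Ciart, -0.25 to 0.53) on the log2 scale. The widest interval, that of Npas2, ran from -0.80 to 0.38, so a limb difference of that size was not detectable. Without CL 1, 3 activator, 5 repressor and 5 output genes stood at an unadjusted p under 0.05 in the same directions, where 10.8% of all genes did so in either direction.

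Gm28653, chosen for display after its values were seen, had nearly the same difference in both limbs. It is annotated as a lincRNA at chr1:20669882-20684298 on the plus strand (GRCm38), a span that contains the microRNA genes Mir206 and Mir133b, both known from muscle. It stood at 0.226, 0.254 and 0.922 CPM in CTL, at 4.44, 4.40 and 2.81 CPM in CL and at 3.69, 4.82 and 3.20 CPM in RL. No library overlapped, and CTL 3 was the highest control. The log2 fold change was 3.08 in CL and 3.09 in RL, and 3.10 ± 0.41 for the mouse profiles. RL minus CL within mice was 0.02 on the log2 scale, with a 95% interval from -0.30 to 0.34. The edgeR test missed the threshold (adjusted p = 0.0665) and DESeq2 passed it (adjusted p = 1.61e-12). Over 15 alternatives the adjusted p ran from 1.61e-12 to 0.354 and was under 0.05 in 6. The counts are of the long transcript and say nothing of the mature microRNAs.

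Angptl7, a secreted angiopoietin-like protein of tendon and other collagen-rich tissue, was lower in both limbs. It stood at 25.2, 19.9 and 29.0 CPM in CTL, at 7.98, 15.7 and 12.4 CPM in CL and at 9.82, 9.99 and 11.4 CPM in RL. All 6 libraries lay below the lowest control, by a log2 fold change of -1.14 ± 0.17 (edgeR adjusted p = 0.0759, DESeq2 adjusted p = 1.91e-07). Over 15 alternatives the adjusted p ran from that DESeq2 value to 0.296 and was under 0.05 in 5. Without CL 1, mouse 304 being taken from RL 1 alone, Angptl7 and Gm28653 passed the edgeR test, each with an adjusted p of 0.0482. They were the 2 genes alike in both limbs that passed in that fit.

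Other lower genes included Mid1ip1, a partner of acetyl-CoA carboxylase in fatty acid synthesis, Aqp1, the water channel of capillary endothelium, and Galnt15, a glycosyltransferase that starts O-linked sugar chains. Mid1ip1 stood at 8.66, 7.97 and 13.1 CPM in CTL and between 4.98 and 5.88 CPM in the 6 libraries of irradiated mice. Its limb values were nearly equal, -0.86 in CL and -0.83 in RL. Aqp1 stood at 119 to 132 CPM in CTL and 69.5 to 95.2 CPM in irradiated mice, and Galnt15 at 13.4 to 14.5 CPM and 5.55 to 9.82 CPM. For both, every library of irradiated mice lay below every control, and the log2 fold changes were -0.62 ± 0.10 and -0.84 ± 0.13. Both were lower in RL, with RL minus CL at -0.21 (95% interval -0.42 to -0.01) for Aqp1 and -0.27 (-0.49 to -0.04) for Galnt15. Neither passed the within-mouse test after adjustment (adjusted p = 0.669 and 0.568). Without CL 1, Aqp1 was at -0.41 in CL and -0.73 in RL, and Galnt15 at -0.59 and -0.97. Ablim3, an actin-binding LIM protein, did not overlap either, at 10.9 to 13.6 CPM against 6.37 to 8.63 CPM. Cdh4, a cadherin, and Wif1, a secreted inhibitor of Wnt ligands, overlapped with controls in 1 library each, RL 1 and CL 2.

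Klf10, Ifi205 and Irf4 also lay above all controls in both limbs of each mouse and were alike when CL 1 was left out. Klf10, a TGF-beta inducible transcription factor, stood at 12.2, 12.1 and 10.6 CPM in CTL, at 17.2, 14.6 and 16.3 CPM in CL and at 19.5, 16.4 and 19.6 CPM in RL. RL minus CL was 0.21 for Klf10 (95% interval 0.02 to 0.40). Ifi205, of the interferon-inducible p200 family, stood at 4.31 to 4.69 CPM in CTL and 6.24 to 9.71 CPM in irradiated mice. Its limbs differed by 0.13 on the log2 scale (95% interval -0.10 to 0.35). It belongs to a cluster of close copies, so its count is uncertain. Irf4, a transcription factor of lymphoid and myeloid cells that is also expressed in muscle and fat, stood at 1.49 to 2.00 CPM and 2.66 to 3.69 CPM. The log2 fold changes of the 3 genes were 0.58 ± 0.11, 0.81 ± 0.14 and 0.86 ± 0.17, with edgeR adjusted p-values of 0.134, 0.125 and 0.149.

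**Figure D2:**
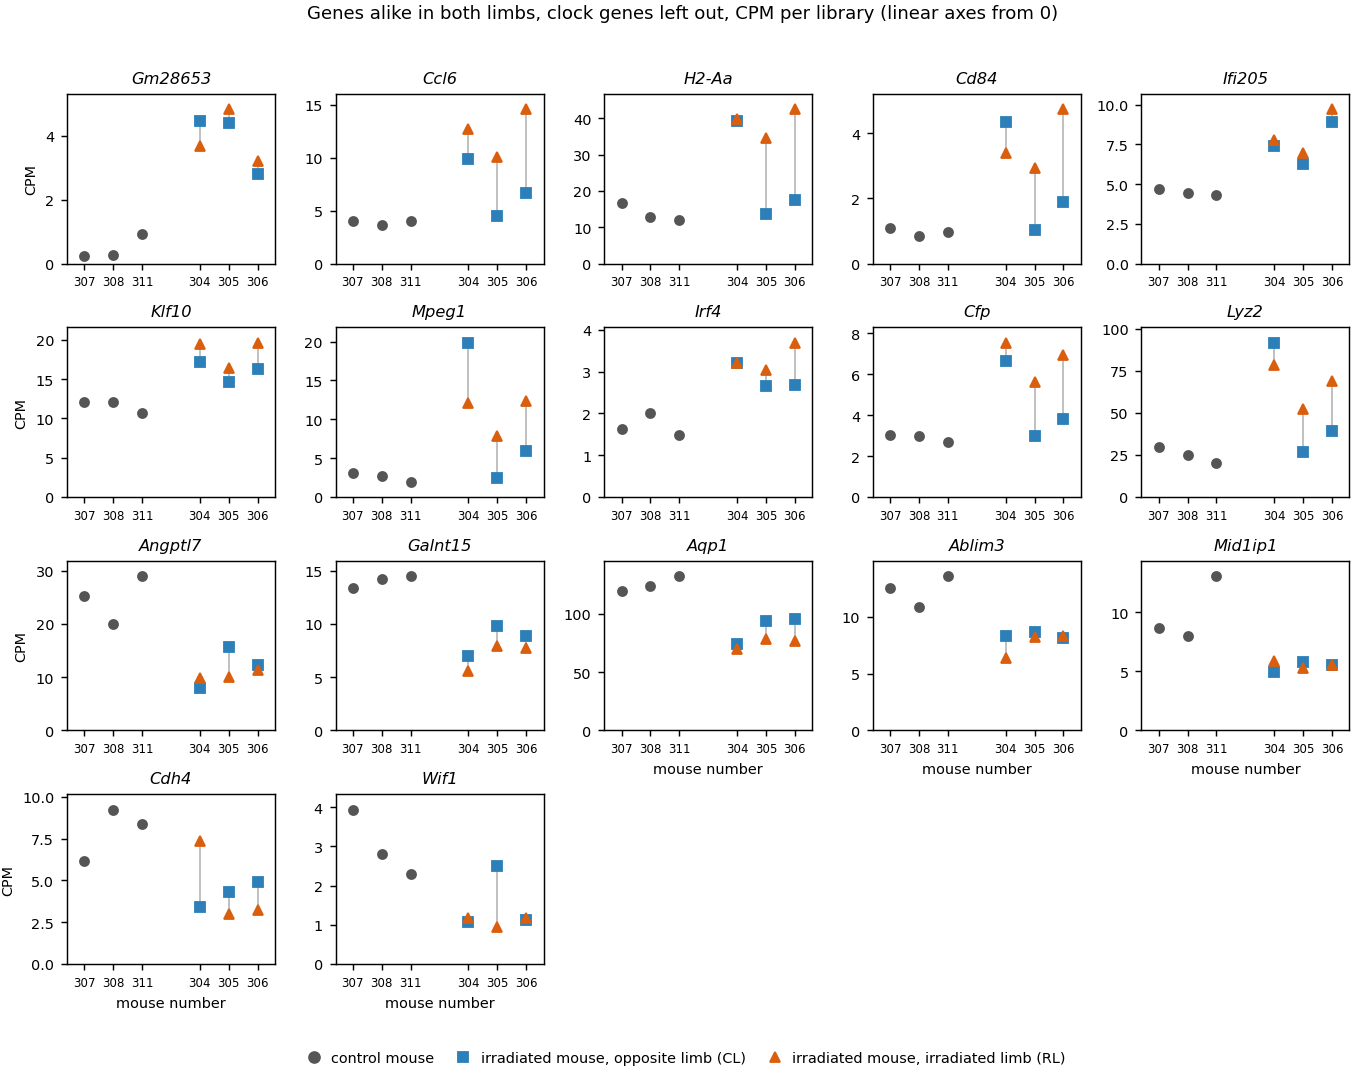
CPM (linear axes from 0) of Gm28653 and of the named genes alike in both limbs, clock genes left out, for each control mouse (circles) and for CL (squares) and RL (triangles) of each irradiated mouse. For Gm28653, Klf10 and Mid1ip1 the limbs of a mouse lie close together and apart from controls, while for Mpeg1, Lyz2, Cd84 and H2-Aa the CL library of mouse 304 lies far above those of mice 305 and 306.

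The genes that passed the test were not of this shared kind. Cdkn1a, the p53 target that encodes the cell cycle inhibitor p21, stood at 1.58, 2.17 and 1.72 CPM in CTL. It stood at 5.61, 3.05 and 2.73 CPM in CL and at 13.9, 9.67 and 11.1 CPM in RL. Each CL library lay above each control and below each RL library. Cdkn1a rose by 2.06 ± 0.19 on the log2 scale (edgeR adjusted p = 0.0141), with 1.07 in CL, 0.66 in CL without CL 1, and 2.66 in RL. RL minus CL within mice was 1.65 (95% interval 1.33 to 1.97, adjusted p = 0.00136). The call held when mouse 304 or 305 was left out, and was lost without mouse 306 or any 1 control, with adjusted p up to 0.154.

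Ccr2, the receptor that draws monocytes into tissue, stood at 2.71 to 3.54 CPM in CTL, at 6.72, 3.31 and 4.47 CPM in CL and at 10.7, 11.0 and 15.2 CPM in RL. RL lay above all other libraries, whereas CL overlapped with CTL through mouse 305. Ccr2 rose by 1.43 ± 0.16 (adjusted p = 0.0271), with 0.60 in CL, 0.28 in CL without CL 1, and 1.95 in RL, and of the 6 fits without 1 mouse the call held in 1. Gm10800 had 0, 1 and 4 counts in CTL, 5, 3 and 1 in CL and 116, 114 and 103 in RL. It is a gene model with near-identical copies, so its count is uncertain, and no shared part was detectable at counts this low in CL.

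**Figure D3:**
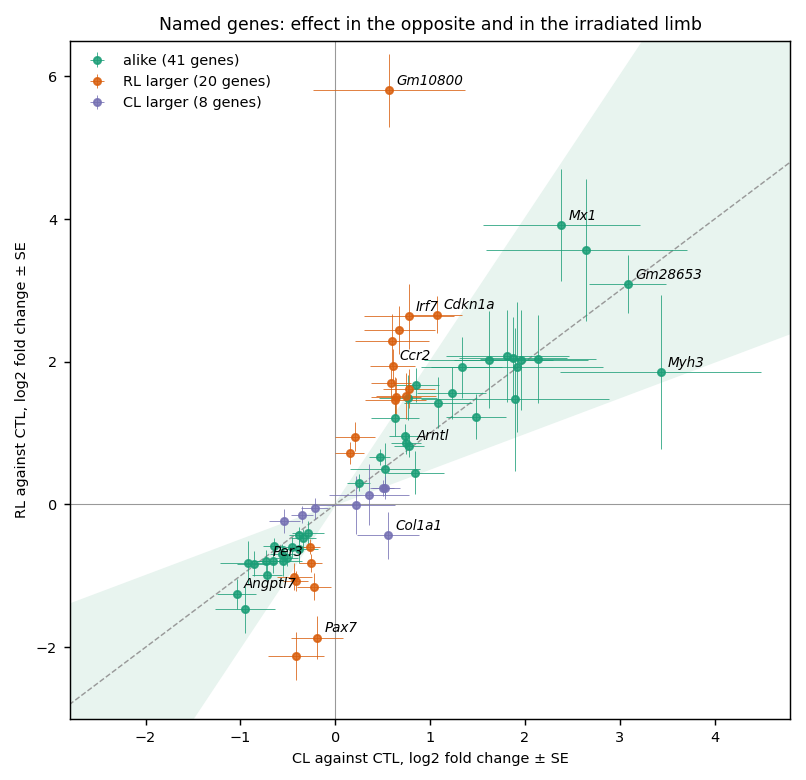
Log2 fold change against CTL in RL (vertical axis) and in CL (horizontal axis), with SE bars, for the named genes, both limbs sharing the same 3 controls. The shaded wedge marks genes alike in both limbs. Gm28653, Arntl, Per3 and Angptl7 lie near the dashed line of equality, and Cdkn1a, Ccr2, Irf7, Gm10800 and Pax7 lie outside the wedge on the side of RL.

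Of 24 interferon response genes, 19 were higher at an unadjusted p under 0.05 (6.79% of all genes) and none lower (3.68%). Their median was 0.18 in CL, -0.15 in CL without CL 1, and 1.24 in RL, and 23 fell in the class larger in RL, which held 33.5% of all genes with limb values. The within-mouse test called 11 of them higher in RL, against 0.232% of all genes, among them Irf7 and Ifit1. Of 21 p53 targets tested, 9 were higher and 1 lower at an unadjusted p under 0.05, and 18 were in the class larger in RL, read against the same shares. The within-mouse test called 2 of 24 p53 targets higher in RL. Of 20 satellite cell genes, which mark muscle stem cells, 5 were lower and 1 higher at an unadjusted p under 0.05, and 15 were in the class larger in RL, again beside 3.68%, 6.79% and 33.5% of all genes. The within-mouse test called 1 of these 20 lower in RL. Pax7, their defining transcription factor, stood at 1.55 to 2.25 CPM in CTL, 1.11 to 1.84 CPM in CL and 0.364 to 0.665 CPM in RL. RL lay below all other libraries and CL overlapped with controls, and the limb difference of Pax7 missed the threshold (adjusted p = 0.0581). In whole muscle, fewer cells of a type and less RNA per cell cannot be told apart.

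Macrophage, antigen presentation and cell cycle genes were alike in both limbs mostly through CL 1. The counts are read against 6.79% of all genes higher at an unadjusted p under 0.05 and 42.4% of genes with limb values alike. Of 17 macrophage genes 15 were higher at that level, with a median of 0.60 in CL and 1.20 in RL, and 11 were alike in both limbs. Without CL 1 the CL median was 0.27 and 0 of the 17 were alike, while over all genes the number alike went from 6327 to 5619. Of 15 antigen presentation genes 13 were higher, and the CL median went from 0.67 to -0.00495 and the number alike from 9 to 0. Of 20 cell cycle genes tested 12 were higher, and the CL median went from 0.88 to 0.17 and the number alike from 16 to 2 of 16 then tested. Mpeg1, a pore-forming protein of macrophages, stood at 1.96 to 3.06 CPM in CTL and at 19.9, 2.49 and 5.88 CPM in CL. H2-Aa, an MHC class II chain, stood at 11.9 to 16.7 CPM in CTL and at 39.4, 13.6 and 17.5 CPM in CL. In both, CL of mouse 305 lay within the range of the controls. Ccl6, a chemokine of myeloid cells, did not overlap, at 3.66 to 4.04 CPM in CTL, 9.87, 4.52 and 6.69 CPM in CL and 10.01 to 14.6 CPM in RL, but was larger in RL once CL 1 was left out. CL 1 is the library with the lymphocyte markers given above, and their part in these values was not tested. In the clock lists, 3 of 6 activator genes and 7 of 10 repressor genes were alike both with and without CL 1. Among the 12 outputs 10 were alike, and 9 without CL 1. The activator share lies near the 42.4% of all genes. Members alike include genes that overlapped with controls, such as Cry1 and Nr1d2, both at -0.20. The median of the outputs was -0.37 in RL, -0.21 in CL and -0.18 in CL without CL 1.

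**Figure D4:**
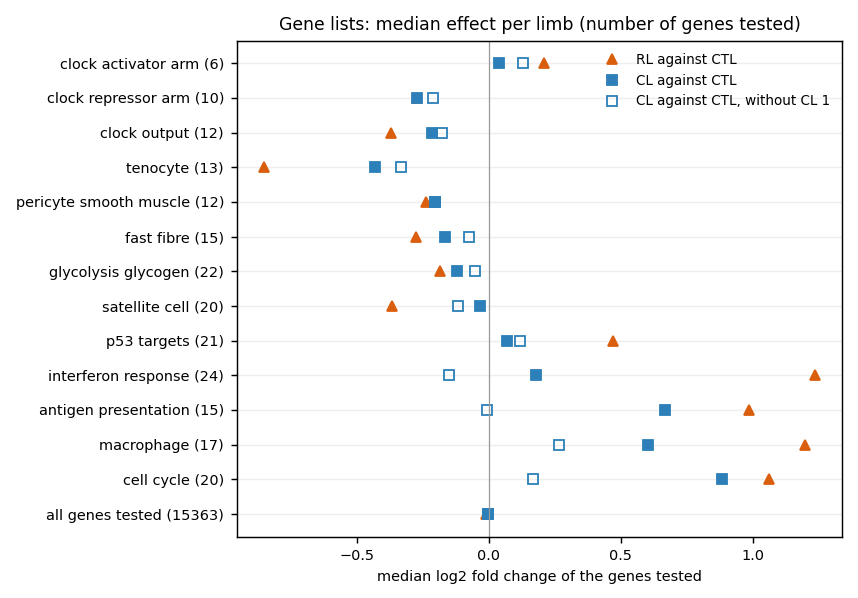
Median log2 fold change of the tested genes of each list in RL (triangles), in CL (filled squares) and in CL without CL 1 (open squares), against the same 3 controls, with the number of genes tested in brackets. The medians of the macrophage, antigen presentation and cell cycle lists in CL drop to 0.27, -0.00495 and 0.17 without CL 1, and those of the clock repressor, clock output and tenocyte lists stay below 0.

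Of 13 tenocyte genes 10 were lower at an unadjusted p under 0.05, against 3.68% of all genes, and none passed the edgeR adjustment. Angptl7, described above, is 1 of the 13. The list was chosen with earlier results of these data known, so this count was not read as evidence. DESeq2 called 5 of the 13 lower, and the within-mouse test called 0 of 13. Angptl7 and Kera were the 2 members below all controls in all 6 libraries. The median of the 13 was -0.43 in CL, -0.33 in CL without CL 1, and -0.85 in RL. Of the 13, 7 were alike in both limbs and 6 larger in RL, beside 42.4% and 33.5% of genes with limb values. Without CL 1, 5 were alike. Kera, which encodes the proteoglycan keratocan, stood at 13.6 to 16.6 CPM in CTL, 9.05 to 13.3 CPM in CL and 8.86 to 10.3 CPM in RL, with no overlap. Fmod, which encodes the collagen-binding fibromodulin, overlapped in CL, at 42.7 to 71.7 CPM in CTL, 32.6 to 50.7 CPM in CL and 28.9 to 32.5 CPM in RL. Scx, the tendon transcription factor, did not follow, with a log2 fold change of 0.01 ± 0.19, nor did Cilp, a cartilage and tendon matrix gene, at 0.57 ± 0.32, or Thbs4, encoding a thrombospondin, at 0.19 in CL and -0.36 in RL. Of the 12 genes listed for pericytes and smooth muscle, 4 were lower at an unadjusted p under 0.05 (3.68% of all genes). Pdgfrb, Abcc9, Myh11, Tagln and Des, 5 of the 12, lay below all controls in all 6 libraries (2.99%). Pdgfrb, at -0.27 in CL and -0.59 in RL, and Des, at -0.17 and -0.37, were in the class larger in RL. Of the 12, 7 were alike in both limbs, and 5 without CL 1, beside 42.4% of all genes with limb values. Abcc9, a channel subunit, stood at 327 to 331 CPM against 242 to 315 CPM. In CTL Des stood at 849 to 1057 CPM and Pdgfrb at 25.9 to 27.4 CPM, and the cell types behind these values were not tested. Rgs5, Acta2 and Mcam did not follow, with log2 fold changes of -0.05, 0.08 and 0.13. Of 15 fast fibre genes 6 were lower at an unadjusted p under 0.05 (3.68% of all genes), with medians of -0.16 in CL and -0.28 in RL. Without CL 1 their CL median was -0.07 and the number alike went from 8 to 3, where over all genes it went from 6327 to 5619. Myh4 had a log2 fold change of -0.35 ± 0.13 (adjusted p = 0.366), while that of Myh1 was 0.02. Kera, Fmod, Scx, Cilp, Thbs4, Abcc9, Myh11, Tagln, Des, Rgs5, Acta2, Mcam and Myh1 were picked after their values were seen.

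Other lists that stand for the state of the whole animal are read against 6.79% of all genes higher and 3.68% lower. Of 22 glucocorticoid response genes 2 were higher and none lower at an unadjusted p under 0.05, with a median of 0.09. Of 22 genes of fasting and fatty acid oxidation none reached that level in either direction, with a median of 0.04. Of 17 lipogenesis genes 2 were lower, and of 13 sterol synthesis genes tested 1 was higher. Of 16 genes of the growth hormone and IGF axis 1 was higher and 3 lower, with a median of -0.07. Of 8 erythroid genes tested and of 14 adipocyte genes tested none reached that level. With 3 animals a group, smaller shared differences may not have been detectable.

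The irradiated mice also differed from each other in both limbs. With the 2 limbs of a mouse as repeats, 210 of 15099 genes (1.39%) differed among the 3 irradiated mice at an adjusted p under 0.05. Of these 154 were highest in mouse 304 and 157 lowest in mouse 305, and for 122 both limbs of mouse 304 lay above the 4 other libraries. Of the 210 genes, 54 also had an unadjusted p under 0.05 against controls. The 2 limbs of a mouse share the animal and its dissection, so this test compares these 3 animals only. Without CL 1, 1599 genes passed, 208 of the 210 among them, in a fit with 1 residual degree of freedom.

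Nr4a2, an immediate early nuclear receptor, stood at 8.59 and 6.29 CPM in CL and RL of mouse 304, at 0.701 and 0.759 CPM in mouse 305 and at 1.20 and 0.947 CPM in mouse 306. Controls stood at 0.502, 1.80 and 0.565 CPM, so both limbs of mouse 304 lay above all other libraries (adjusted p = 0.000402 among mice). Bcl6, a transcriptional repressor, was ordered 304, 306, 305 in both limbs, at 43.9 and 37.5 CPM, 20.7 and 18.3 CPM, and 14.4 and 11.7 CPM. Controls at 20.9 to 23.7 CPM lay between mice 304 and 305. Hipk2, a kinase of the stress response, had the same order, but its controls were spread from 41.3 to 94.4 CPM. Mfsd7b, a haem exporter also called Flvcr1, went the other way, at 9.83 and 11.4 CPM in mouse 304, 31.1 and 29.8 CPM in mouse 305 and 21.3 and 19.4 CPM in mouse 306, with controls at 13.7 to 15.5 CPM.

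Of 18 chaperone and heat shock genes 9 differed among the irradiated mice, against 1.39% of all genes. All 9 were highest in both limbs of mouse 304, as were 122 of all 210 genes that differed. Hspa1b, an inducible HSP70 gene, stood at 5.39 and 4.99 CPM in mouse 304 and at 0.556 to 1.26 CPM in mice 305 and 306, with controls at 0.276 to 0.803 CPM. Hspa1a is its near-identical copy, so reads may have been split between them. Summed over the list, mouse 304 held 1363 and 1395 CPM, mouse 305 held 1060 and 1009 CPM, mouse 306 held 1224 and 1124 CPM, and controls held 1055 to 1189 CPM.

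The following counts are read against 1.39% of all genes. Of 13 myogenic regeneration genes tested 7 differed among mice, all highest in mouse 304, as were 154 of all 210 genes that differed. Myh3, embryonic myosin, had 33.0 CPM in the opposite and 9.77 CPM in the irradiated limb of mouse 304 and 1.52 to 3.45 CPM in the other 4 libraries, with controls at 0.958 to 1.34 CPM. Of the extracellular matrix genes 4 of 26 differed, among them Postn, which encodes periostin, at 158 and 52.5 CPM in mouse 304 against 14.9 to 21.9 CPM in the other 4 libraries. For both genes, CL of mouse 304 lay above its irradiated limb. Of 14 slow fibre genes 4 differed, and all 4 were lowest in mouse 304, as were 35 of all 210 genes. Without CL 1, the log2 difference of mouse 305 from mouse 304 went from -3.62 to -2.98 for Myh3, from -3.34 to -3.18 for Nr4a2 and from -3.08 to -2.78 for Hspa1b. Against controls, the CL value of Myh3 went from 3.43 to 1.08. Postn was named after its values were seen.

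**Figure D5:**
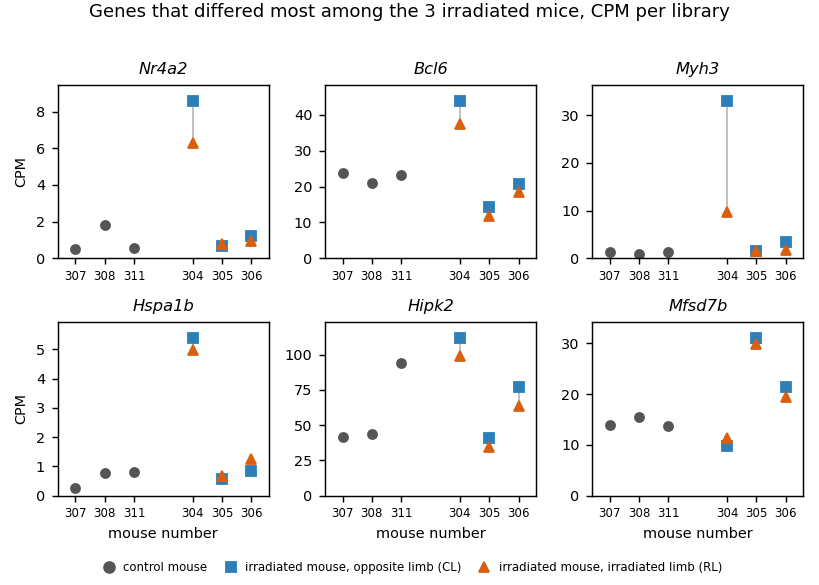
CPM (linear axes from 0) of the 6 genes with the smallest p for a difference among the 3 irradiated mice, for each control mouse (circles) and for CL (squares) and RL (triangles). Both limbs of mouse 304 are the highest for Nr4a2, Bcl6, Myh3, Hspa1b and Hipk2, and both limbs of mouse 305 are the highest for Mfsd7b.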

How the data were processed

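Total RNA of mouse gastrocnemius was made into stranded libraries and sequenced, per the labels. The values used are unnormalised counts by gene, deposited by the authors for 9 libraries, on GRCm38.p5 per the submitters' processing notes. Aligner, counter, strand setting and annotation: not given in the sources used here. Thus overlapping genes and close copies are uncertain. Of 49568 gene rows, 26 had names turned into dates (up to 0.0536% of counts) and were left out. Coordinates are 1-based, from GENCODE vM21 on GRCm38.

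CL and RL counts were summed per mouse by the mouse number in the labels. The main test was edgeR 4.0.16 (R 4.3.3), quasi-likelihood, with trimmed-mean scaling and its filter on low counts (minimum 10), without covariates. P-values were adjusted over all genes tested, with 0.05 as threshold. Limb values came from 1 edgeR fit of all 9 libraries. RL was compared with CL in a fit with the mouse as a block, and differences among irradiated mice were tested with the limb as a covariate. SE was taken as the size of the log2 fold change over the root of F, and CPM used the scaled library totals. Same-mouse limbs had correlated deviations from their group means (r = 0.30, 0.43 and 0.07), against -0.36 to 0.10 for limbs of different mice. The pairing itself comes from the labelled mouse numbers, and controls are other animals. No 2 replicates were alike within counting noise.

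Named by rule were, as fewer than 10 genes were called, the 10 genes alike in both limbs with the smallest p each way, up to 4 genes each way larger in RL and 2 larger in CL, the smallest p-values of described lists and of the comparison among mice, and 7 standing genes. Genes named by class needed an average log2 CPM of 1 or more, a limit not set for genes named from lists or the comparison among mice. The members, gene lists and tests were chosen with earlier results of these data known. Alternatives were DESeq2 1.42.0, limma 3.58.1, other scaling, no filter, thinned limbs, left-out libraries and a replicate block. The fits were tested on simulated data. The values of 1 marker gene are not reported here.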

Additional observations from a re-analysis of the deposited data

Results flagged for a closer look

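For 9 named genes the effect in the irradiated limb differed from that in the opposite limb, by edgeR's paired test of RL against CL in the same 3 mice. They mark where the shared comparison hides a limb difference. Among interferon genes RL minus CL was 1.87 on the log2 scale for Irf7 (adjusted p = 0.000378) and 1.75 for Ifit1 (adjusted p = 0.00667). Among p53 targets it was 1.65 for Cdkn1a (adjusted p = 0.00136) and 0.58 for Trp53inp1 (adjusted p = 0.0273). For the myeloid genes Ccr2, Lyz1 and Itgam it was 1.37, 1.12 and 0.90 (adjusted p = 0.0272, 0.0337 and 0.0366). For Chodl, a satellite cell marker, it was -0.92 (adjusted p = 0.0240), and for Gm10800 it was 5.27 (adjusted p = 0.000224). RL lay on the same side of CL in all 3 mice for each of these genes. Ccr2, Lyz1, Itgam, Trp53inp1 and Chodl missed the threshold when mouse 305 or mouse 306 was left out, with adjusted p from 0.0673 to 0.269.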

How the results depend on the processing

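Other scaling, leaving out mitochondrial genes and thinning the limbs to equal depth each gave 3 genes for irradiated mice against CTL and 0 alike in both limbs. DESeq2 gave 264 and 209, no low-count filter 663 and 466, mouse 304 by RL 1 alone 7 and 2. Limma-voom gave 0, and mouse 304 by CL 1 alone, added after the data were seen, gave 1. Leaving out 1 mouse gave 0 to 359 genes, of which 0 to 315 were alike in both limbs. A replicate block pairing controls with irradiated mice by number, which share nothing else, gave 97 genes, 76 of them alike. Stricter definitions of alike, a limit of 0.67 or no limb difference at p under 0.05, left 0.

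RL against CL within mouse gave 43 genes, 4 without the replicate block, 482 without the filter and 12 to 890 with 1 mouse left out. The difference among irradiated mice gave 210 genes, 1801 without the filter, 52 without the limb term, 1599 without CL 1 (added after the data were seen) and 25 to 929 with 1 mouse left out, 929 of them without mouse 304. The cause of these shifts was not tested.

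Among named genes, 4 turned direction against CTL, none of which had passed the test. Bcl6, 0.12 in the test as reported, was -0.055 with limma-voom, -0.038 with the replicate block, and -0.47 (without mouse 304) to 0.43 with 1 mouse left out. Col1a1, 0.18 in the test as reported, was -0.24 with mouse 304 by RL 1 alone and -0.28 (without mouse 304) to 0.41 with 1 mouse left out, turning also without CTL 3 (-0.013). Nr4a2, 1.72 in the test as reported, ran from -0.084 without mouse 304 to 2.57, and Hipk2, 0.26, from -0.15 without mouse 304 to 0.75. With 0 to 5 counts in CTL and CL, Gm10800 is limited by depth.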

Other observations

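Lists outside the comparisons above gave the following values at an unadjusted p under 0.05 between irradiated mice and CTL, where 6.79% of all genes were higher and 3.68% lower. Of 14 imprinted growth genes tested 4 were higher and 1 lower, with a median of 0.30 in CL that became 0.02 without CL 1. Of 26 extracellular matrix genes 7 were higher, with a CL median of 0.40 that became 0.10 without CL 1. Of 15 Schwann cell genes tested 3 were lower and 1 higher. Their median was -0.49 in RL and -0.21 in CL, and the CL median became -0.09 without CL 1. Col1a1 stood at 203 to 351 CPM in CTL, at 701, 240 and 329 CPM in CL and at 190 to 255 CPM in RL.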
